A study of Drosophila melanogaster with 8 samples.

Results

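The comparison described here is that of dStim knockdown followed by a recovery period with wild type in the Drosophila melanogaster pupal central nervous system (CNS) at 72 h after puparium formation (APF). It takes 4 of the 8 RNA sequencing samples of the study, 2 of KD+Recovery 72h and 2 of WT 72h, chosen by their labels. The other 4, 2 of KD 36h and 2 of WT 36h, are given beside them only to show where the later time point differs. KD+Recovery 72h animals had the genotype ElavC155GAL4; dStimRNAi/tubulinGAL80ts. In them the neuronal elav driver on the X chromosome expresses an RNA hairpin against dStim, and a temperature-sensitive GAL80 blocks GAL4 until the animals are warmed. They were kept at the higher temperature for 24 h up to 36 h APF and were then returned to the lower one for 36 h of recovery. KD 36h animals had the same genotype and were taken directly after the 24 h of knockdown. WT 72h and WT 36h animals were Canton S, without the driver, the RNAi and the GAL80 transgenes, so that knockdown, transgenes and strain background cannot be told apart. The study's text does not state whether the sequenced Canton S pupae were warmed in the same way. If they were not, rearing temperature cannot be told apart from these either. About 10 CNS were pooled in each sample, and the sex of the pupae was not given in the sources used here.

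dSTIM is the calcium sensor of the endoplasmic reticulum. When the store empties it opens the plasma membrane channel dOrai, and the calcium that then enters (store-operated calcium entry, SOCE) can act on transcription. Neuronal SOCE in the pupa is needed for flight in the adult, and the recovery time point asks which RNAs still differ once the RNAi has been switched off. Between 36 and 72 h APF the CNS also matures. Synaptic and ion channel genes come up. Outside the CNS the epidermis lays down adult cuticle, the flight muscles are built and sperm cells develop in the testis.

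Every level below is the authors' FPKM (sequenced fragments relative to the transcript's length and to the library's total), 1 value per gene and group that CuffDiff pooled over both replicates. There is therefore no replicate check, no SD and no test of any difference, and the read depth behind a value is unknown. A ratio is the FPKM of KD+Recovery 72h over that of WT 72h, without a pseudocount, for genes with a mean FPKM of at least 1 and above 0 in both groups. Differences of at least 2-fold are counted. Levels at 36 and 72 h come from tables that were normalised separately, so a level at one time is only placed beside the other. In bulk tissue, fewer cells of a type and less RNA per cell cannot be told apart.

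Of 9204 genes compared at 72 h, 186 (2.02%) were at least 2-fold higher and 477 (5.18%) at least 2-fold lower in KD+Recovery 72h, or 2.56 lower genes for each higher one. That ratio was 1.45 with at least 1 FPKM in both groups (143 higher and 207 lower genes), 1.43 with a mean of at least 5 FPKM (104 and 149) and 4.09 after scaling to a common upper quartile. At 36 h, 195 of 9258 genes (2.11%) were higher and 280 (3.02%) lower in KD 36h. Most genes had nearly the same level in both groups at 72 h, with 82.4% within 1.5-fold and a median log2 ratio of -0.01. The lower genes were mostly scarce RNAs. Among the 759 genes with a mean FPKM from 1 to 2, 26.2% were at least 2-fold lower and 4.61% higher, whereas among the 1115 genes with a mean of 100 or more these shares were 1.70% and 1.08%. Strn-Mlck lay just inside the threshold and fln just outside it among the higher genes, and CG9117 and Cyt-c-d among the lower ones.

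**Figure D1:**
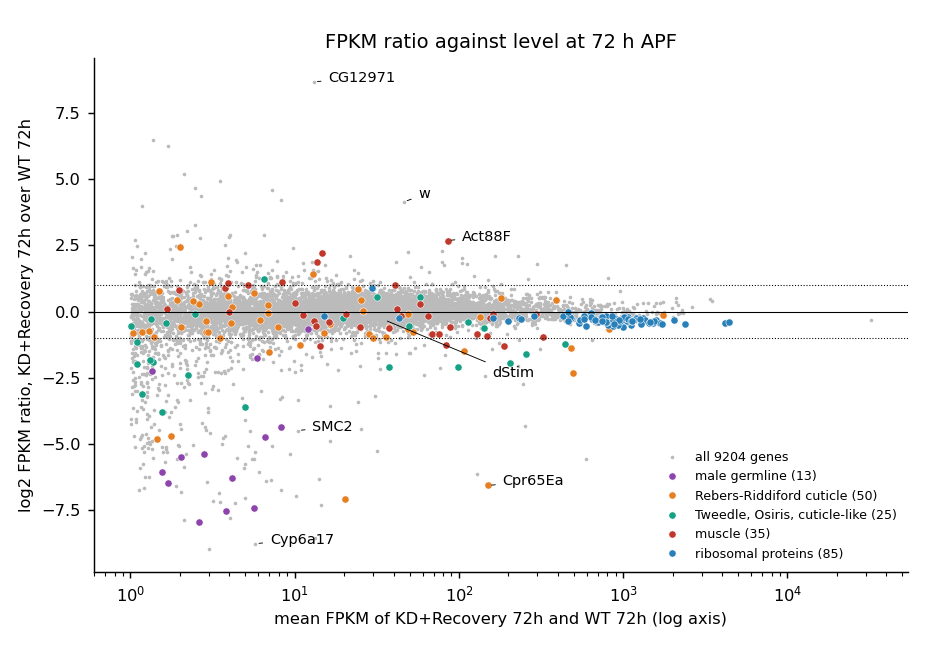
The log2 ratio of FPKM in KD+Recovery 72h over WT 72h is plotted against the mean FPKM of both groups (log axis) for 9204 genes, with 5 gene lists in colour and dotted lines at 2-fold. The 13 male germline genes lie below 0, most of them far below the other lists, while the 85 ribosomal protein genes form a narrow band just under 0.

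The targeted gene was checked first. dStim (listed as Stim, FBgn0045073, dm3 X:15828528-15834543) had 31.3 FPKM in KD+Recovery 72h and 38.6 FPKM in WT 72h, a log2 ratio of -0.31. At 36 h it had 33.9 FPKM in KD 36h and 42.2 FPKM in WT 36h. The log2 ratio at 36 h was -0.32, so by FPKM dStim RNA was as far below WT after the recovery period as directly after knockdown. Recovery in the group's name is therefore used here for the treatment. A return of dStim RNA is not seen in these pooled values, whose differences could not be tested. The study, by contrast, measured dStim RNA by quantitative PCR and reports that its expression recovered. Why the FPKM differ from that result was not tested. The partner of dStim, the channel gene dOrai (listed as olf186-F), had 16.4 FPKM in KD+Recovery 72h and 28.4 FPKM in WT 72h. At 36 h dOrai had 43.1 FPKM in KD 36h and 77.6 FPKM in WT 36h. The study reports dOrai expression, too, as restored after recovery, also by quantitative PCR. Of 12 genes of calcium stores and entry that could be compared, none differed 2-fold at 72 h, although dOrai had a log2 ratio of -0.79, and of -1.03 relative to genes of similar transcript length. dStim and dOrai were the only 2 of them below 0 before length was taken into account. The list's median log2 ratio was 0.29, but -0.02 relative to genes of similar transcript length. The IP3 receptor Itp-r83A, which releases calcium from the store, had 51.8 FPKM in KD+Recovery 72h and 37.0 FPKM in WT 72h, and the store's calcium pump Ca-P60A had 171 FPKM and 111 FPKM in the same groups.

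The study followed several genes by quantitative PCR. The primers for dStim and for Set2 and tko, whose FPKM differed at least 2-fold at 72 h, are given here to show which transcripts were assayed. All 3 genes lie on X. Primers are written 5′ to 3′ in lower case.
Stim forward: gaagcaatggatgtggttctg
Stim reverse: ccgagttcgatgaactgagag
Set2 forward: ccaatgccaccgagtgttac
Set2 reverse: tccttgcgatacggacgc
tko forward: tgccagctctaggacagc
tko reverse: ttgtagtaccagccgtcgc

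Set2 (FBgn0030486, dm3 X:13307311-13315057), the methyltransferase that trimethylates lysine 36 of histone H3 in transcribed genes, had 9.75 FPKM in KD+Recovery 72h and 40.3 FPKM in WT 72h, 4.13-fold lower after recovery. At 36 h the difference was smaller, with 14.5 FPKM in KD 36h and 22.5 FPKM in WT 36h. Among 58 chromatin regulators compared, 2 were at least 2-fold lower (5.18% of all genes) and none higher. Besides Set2 this was Acf1, a subunit of the ACF nucleosome spacing complex, with 11.1 FPKM in KD+Recovery 72h and 22.4 FPKM in WT 72h. The median log2 ratio of the 58 was 0.15. SMC2 (FBgn0027783), a core subunit of the condensin complex that compacts mitotic chromosomes, had 0.888 FPKM in KD+Recovery 72h, against 19.99 FPKM in WT 72h, and 2.19 FPKM in KD 36h, against 11.4 FPKM in WT 36h. It was the single one of 18 condensin, cohesin and SMC genes to be 2-fold lower (5.18% of all genes), and none was higher. SMC2 passed the level filter at 72 h only through WT 72h, which fixes its direction. Of 22 DNA replication genes none differed 2-fold.

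In the opposite direction, tko (dm3 X:2336346-2338009), a protein of the small mitochondrial ribosomal subunit, had 89.5 FPKM in KD+Recovery 72h and 28.0 FPKM in WT 72h. Of 73 mitochondrial ribosomal proteins compared, 70 had a log2 ratio below 0. The list's median was 0.01 relative to genes of similar transcript length. None was at least 2-fold lower, and only tko was at least 2-fold higher (2.02% of all genes). Its close neighbour gt (dm3 X:2321140-2322996), the gap gene transcription factor Giant, had 6.76 FPKM in KD+Recovery 72h and 0.220 FPKM in WT 72h. Further along X, w (dm3 X:2684632-2690499) had 87.3 FPKM in KD+Recovery 72h and 4.94 FPKM in WT 72h. w encodes the White transporter of eye pigment precursors and is a common marker in fly transgenes, which the Canton S animals lack. gt, tko and w were also the higher ones in KD 36h, with 5.32, 61.3 and 222 FPKM, against 0.332, 27.3 and 88.0 FPKM in WT 36h. Of 73 genes compared in the stretch of X from gt to w with 300000 bases on either side, 4 were at least 2-fold higher (2.02% of all genes) and 4 lower (5.18% of all genes) at 72 h. At 36 h 5 of 72 were higher (2.11% of all genes) and 1 lower (3.02% of all genes). The stretch was drawn around gt, tko and w, which are counted among its higher genes at both times. Its counts of higher genes were therefore partly set in advance. At 72 h gt passed the level filter only through KD+Recovery 72h. path, an amino acid transporter of growing neurons, had 70.9 FPKM in KD+Recovery 72h and 37.2 FPKM in WT 72h, just short of 2-fold, with similar levels at 36 h of 77.4 FPKM in KD 36h and 40.9 FPKM in WT 36h.

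Of the 62 gene lists with members compared, the male germline list had the median furthest from 0. Its genes encode proteins of the sperm nucleus, tail and mitochondria and are transcribed in spermatocytes of the testis. Of 55 listed genes, 28 reached 1 FPKM in WT 72h and 3 did so in KD+Recovery 72h. The summed FPKM of the 55 was 18.7 in KD+Recovery 72h and 247 in WT 72h, 13.2-fold less after recovery. At 36 h the sums were 55.3 in KD 36h and 56.4 in WT 36h. The list held 28 genes at 0 in KD+Recovery 72h and 9 at 0 in WT 72h. Of 13 genes that could be compared, 12 were at least 2-fold lower (5.18% of all genes), with a median log2 ratio of -5.49. Of these 12, 11 were under 1 FPKM in KD+Recovery 72h and so passed the level filter through WT 72h alone, which fixes their direction. A further 10 passed the level filter but were listed at 0 in KD+Recovery 72h, which gives no ratio.

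The 4 Mst84D genes, neighbours at dm3 3R:3189017-3195027 that encode small cysteine-rich proteins of the sperm tail, were all listed at 0 in KD+Recovery 72h. In WT 72h Mst84Da had 23.9 FPKM, Mst84Db 17.9 FPKM, Mst84Dc 22.8 FPKM and Mst84Dd 12.3 FPKM. The related Mst87F (20.4 FPKM in WT 72h), the testis genes ocn (12.6 FPKM) and dj (5.53 FPKM) and the sperm leucyl-aminopeptidase CG13340 (S-Lap7, 10.1 FPKM) were likewise listed at 0 in KD+Recovery 72h. None of these 8 genes reached 1 FPKM in either group at 36 h. Other members were detected at a trace in KD+Recovery 72h. The sperm aminopeptidase loopin-1 had 0.0655 FPKM in KD+Recovery 72h and 11.2 FPKM in WT 72h. Mst77F, a histone-like protein of sperm chromatin, had 0.477 FPKM in KD+Recovery 72h and 12.7 FPKM in WT 72h. The aminopeptidase CG6372 (S-Lap1) had 0.764 FPKM in KD+Recovery 72h and 15.8 FPKM in WT 72h. All 7 S-Lap genes were lower in KD+Recovery 72h, with a summed FPKM of 1.02 there and 49.7 in WT 72h. betaTub85D, the tubulin of the sperm tail, had 2.68 FPKM in KD+Recovery 72h and 9.06 FPKM in WT 72h, and Mst85C, the most abundant gene on the list, 9.29 FPKM and 14.8 FPKM in the same groups.

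**Figure D2:**
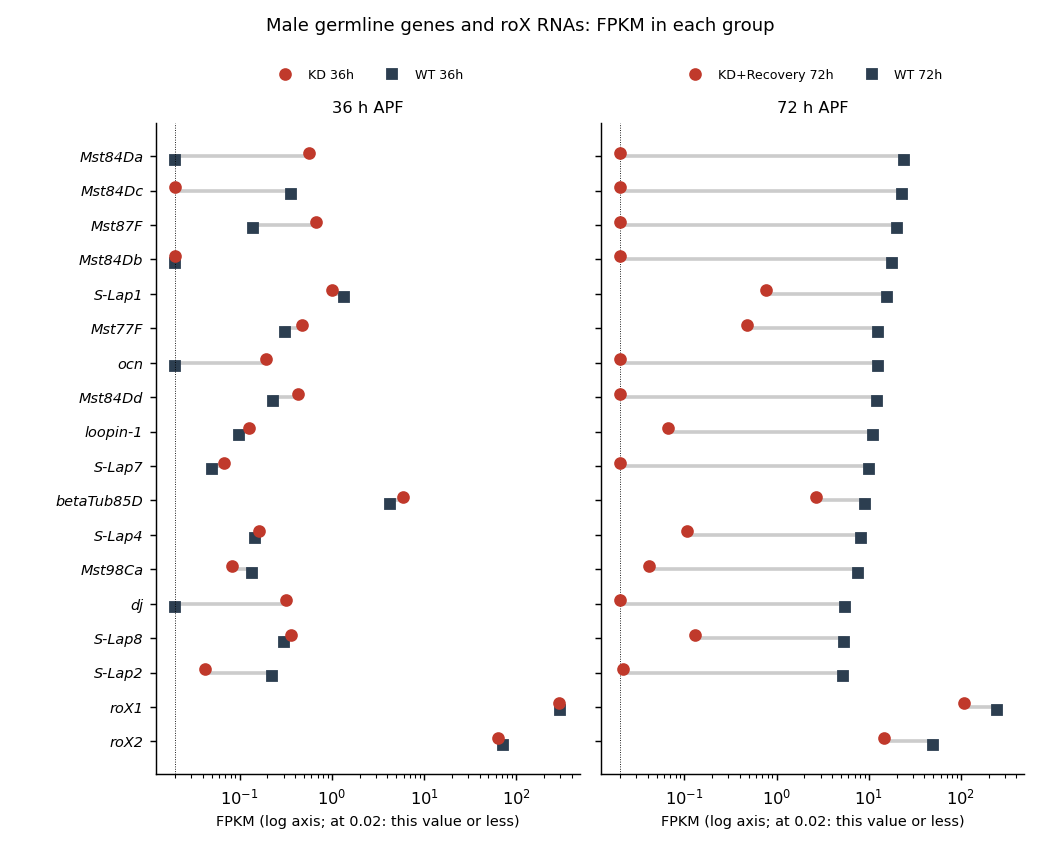
FPKM (log axis, 1 pooled value per group) of 16 male germline genes and the roX RNAs, with KD 36h and WT 36h on the left and KD+Recovery 72h and WT 72h on the right, where values at or under 0.02 sit on the dotted line. At 72 h every gene shown is lower in KD+Recovery 72h, while at 36 h the germline genes other than betaTub85D and S-Lap1 are under 1 FPKM in both groups.

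Genes outside this list were also above 1 FPKM in WT 72h alone. Of 477 genes at least 2-fold lower at 72 h, 185 were under 1 FPKM in both groups at 36 h, and 154 of these were also under 1 FPKM in KD+Recovery 72h. Such genes passed the level filter only through WT 72h, so their count describes them and their direction was fixed. Of the 12 genes with the lowest ratios at a mean of at least 5 FPKM, 8 had this absence at 36 h, among them CG12699 with 0.0715 FPKM in KD+Recovery 72h and 26.5 FPKM in WT 72h, CG17376 with 0.182 FPKM and 28.6 FPKM, and CG34168 with 0.161 FPKM and 20.2 FPKM in the same groups. Leaving out small RNAs, 22 genes were listed at 0 in KD+Recovery 72h with 5 FPKM or more in WT 72h. Of these 8 are on the germline list and 21 were under 1 FPKM in both groups at 36 h. The highest in WT 72h was CG31226 with 33.0 FPKM. The reverse, 0 in WT 72h and 5 FPKM or more after recovery, held for 1 gene other than small RNAs, Sfp33A4, a seminal fluid protein, with 20.4 FPKM in KD+Recovery 72h.

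Of 74 nuclear genes of oxidative phosphorylation compared, 6 were at least 2-fold lower (5.18% of all genes) and none higher, a share not far from that of all genes. Of the 6, 4 were under 1 FPKM in KD+Recovery 72h and so passed the level filter through WT 72h alone, which fixes their direction. These 4 were scarce second copies of subunits of cytochrome c oxidase, the last enzyme of the respiratory chain. COX5BL (listed as CG11043) had 0.512 FPKM in KD+Recovery 72h and 3.33 FPKM in WT 72h, COX6CL (CG31644) 0.344 FPKM and 2.18 FPKM, COX6AL (CG30093) 0.370 FPKM and 1.63 FPKM, and COX4L (CG10396) 0.931 FPKM and 2.95 FPKM in the same groups. The other 2 were Ant2, an ADP/ATP carrier, with 1.83 FPKM in KD+Recovery 72h and 4.59 FPKM in WT 72h, and Sdhaf3 (CG14898), an assembly factor, with 24.8 FPKM and 56.2 FPKM. The 65 members with a mean of 50 FPKM or more, which make up the bulk of the list, ranged only from -0.46 to 0.19 in log2 ratio. Vha36-3 (CG8310), a scarce copy of a proton pump subunit, had 1.62 FPKM in KD+Recovery 72h and 15.1 FPKM in WT 72h. It was the only one of 21 proton pump genes to differ 2-fold (5.18% of all genes were lower).

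The roX RNAs were lower as well. roX1 and roX2 are noncoding RNAs that coat the single X chromosome of males and guide the dosage compensation complex, and they are made in males. roX1 had 108 FPKM in KD+Recovery 72h and 244 FPKM in WT 72h, 2.25-fold lower after recovery. roX2 had 14.7 FPKM in KD+Recovery 72h and 49.9 FPKM in WT 72h, 3.40-fold lower. At 36 h both were close in the groups, with roX1 at 294 FPKM in KD 36h and 301 FPKM in WT 36h. They were the only 2 of 17 genes of dosage compensation and sex determination to differ 2-fold, both being lower (5.18% of all genes). Their protein partner msl-2 had 12 FPKM in KD+Recovery 72h and 14.3 FPKM in WT 72h. Sxl, which blocks msl-2 in females, had 221 FPKM in KD+Recovery 72h and 142 FPKM in WT 72h. Genes on X as a whole had a median log2 ratio of 0.03 (n = 1526), against medians from -0.03 to -0.01 on the large autosomal arms. Male germline and roX levels were thus both lower in KD+Recovery 72h, and the part of testis RNA or of the sex of the pupae in these and the other differences was not tested.

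Genes of the cuticle formed the next group. Cuticle is secreted by the epidermis that surrounds the animal, and by the trachea, from chitin and structural proteins, and the Osiris family is a block of neighbouring genes active in epidermis and trachea as cuticle forms. All 24 Osiris genes listed were lower in KD+Recovery 72h, 9 of them with a mean under 1 FPKM. Of 15 that could be compared, 13 were at least 2-fold lower (5.18% of all genes), and the median log2 ratio was -1.94. Of these 13, 8 were under 1 FPKM in KD+Recovery 72h and so passed the level filter through WT 72h alone, which fixes their direction. Of the 13, 11 formed, with CG17919, a run of 12 neighbouring compared genes at dm3 3R:2044040-2171642 that were each at least 2-fold lower. The summed FPKM of the 24 genes was 552 in KD+Recovery 72h and 1605 in WT 72h.

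The family split into members on at 72 h and members going off. Osi15 had 264 FPKM in KD+Recovery 72h and 619 FPKM in WT 72h, Osi20 126 FPKM and 384 FPKM, Osi19 85 FPKM and 326 FPKM, and Osi18 37.3 FPKM and 161 FPKM in the same groups. These 4 were under 1 FPKM in both groups at 36 h. Osi9 had 14.3 FPKM in KD+Recovery 72h and 61.2 FPKM in WT 72h, and Osi7 0.761 FPKM and 9.13 FPKM, though at 36 h Osi9 had 680 FPKM in KD 36h and 625 FPKM in WT 36h, and Osi7 353 FPKM and 490 FPKM. Both the early and the late members named were lower after recovery at 72 h, though Osi7 passed the level filter only through WT 72h.

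Of 50 genes compared of Rebers-Riddiford and adult cuticle proteins, the main chitin-binding proteins of cuticle, 10 were at least 2-fold lower (5.18% of all genes) and 3 higher (2.02% of all genes). Under 1 FPKM were 3 of the 10 lower genes in KD+Recovery 72h, with Lcp65Ag2, and 1 of the 3 higher, Cpr47Ec, in WT 72h. These passed the level filter through 1 group alone, which fixes their direction. Cpr65Ea had 3.15 FPKM in KD+Recovery 72h and 298 FPKM in WT 72h, 94.5-fold lower. Lcp65Ag2 had 0.300 FPKM and 40.0 FPKM, Cpr49Ae 165 FPKM and 823 FPKM, and Acp65Aa, an adult cuticle protein, 269 FPKM and 693 FPKM in the same groups. Higher members were Cpr100A, with 18.8 FPKM in KD+Recovery 72h and 6.99 FPKM in WT 72h, Cpr47Ec, with 3.40 FPKM and 0.628 FPKM, and Acp1. The most abundant member, Cpr64Ad, had 1665 FPKM in KD+Recovery 72h and 1802 FPKM in WT 72h. The list's median log2 ratio was -0.57, and -0.34 relative to genes of similar transcript length. Over all 98 markers of epidermis and cuticle the summed FPKM was 4036 in KD+Recovery 72h and 6028 in WT 72h, with 15 markers at 0 in KD+Recovery 72h and 20 at 0 in WT 72h. The 4 markers of trachea, none at 0 in either group, summed to 52.6 in KD+Recovery 72h and 61.3 in WT 72h, and the 6 of fat body, none at 0, to 95.5 and 133. The part of epidermis or trachea attached to the CNS in these differences was not tested. Lcp65Ag1 and Lcp65Ag2 are nearly identical copies, between which reads can be split.

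Of 30 genes that make, bind or remodel chitin, 7 were at least 2-fold lower (5.18% of all genes) and none higher. kkv, the chitin synthase of the cuticle, had 1.59 FPKM in KD+Recovery 72h and 4.09 FPKM in WT 72h. The chitinase Cht5 had 4.33 FPKM in KD+Recovery 72h and 9.31 FPKM in WT 72h, though at 36 h it had 778 FPKM in KD 36h and 447 FPKM in WT 36h. The chitin-binding obst-A had 10.5 FPKM in KD+Recovery 72h and 22.8 FPKM in WT 72h. ImpE2, an ecdysone-induced gene of imaginal discs, had 1.08 FPKM in KD+Recovery 72h and 31.8 FPKM in WT 72h, and at 36 h 176 FPKM in KD 36h and 121 FPKM in WT 36h. ImpL1, of the same kind, had 2.44 FPKM in KD+Recovery 72h and 8.48 FPKM in WT 72h. No gene of melanin and tanning differed 2-fold (16 compared), and ple, the tyrosine hydroxylase shared by tanning and dopamine synthesis, had 26.8 FPKM in KD+Recovery 72h and 27.5 FPKM in WT 72h.

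Muscle genes went both ways. Of 35 compared, 6 were at least 2-fold higher (2.02% of all genes) and 3 lower (5.18% of all genes), with a median log2 ratio of -0.13. Act88F (FBgn0000047), the actin of the indirect flight muscles, had 147 FPKM in KD+Recovery 72h and 23.0 FPKM in WT 72h, 6.43-fold higher. TpnC4, the calcium-binding troponin C of flight muscle, had 21.3 FPKM in KD+Recovery 72h and 5.87 FPKM in WT 72h, and TpnC41C, a second troponin C, 11.4 FPKM and 5.24 FPKM. Act79B, an actin of adult thorax and leg muscle, had 24.0 FPKM in KD+Recovery 72h and 5.24 FPKM in WT 72h. Unc-89, the obscurin of the sarcomere's M line, had 5.37 FPKM in KD+Recovery 72h and 2.52 FPKM in WT 72h, and the flight muscle gene fln, just short of 2-fold, 54.7 FPKM and 27.4 FPKM.

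The 3 lower members were Mlp60A and a pair of troponin C genes. Mlp60A, a LIM protein of the sarcomere, had 109 FPKM in KD+Recovery 72h and 267 FPKM in WT 72h. The troponin C genes TpnC73F and TpnC47D, which are made in other muscles, had 49.1 FPKM and 8.20 FPKM in KD+Recovery 72h, against 118 FPKM and 20.4 FPKM in WT 72h. Act57B, an actin of larval and other body muscle and the most abundant gene on the list, had 221 FPKM in KD+Recovery 72h and 424 FPKM in WT 72h. The summed FPKM of the 35 genes was 1966 in KD+Recovery 72h and 2574 in WT 72h, and the 9 defining muscle markers were above 1 FPKM in both groups. The part of attached muscle in these differences was not tested. At 36 h, 13 of 30 muscle genes compared were at least 2-fold lower in KD 36h (3.02% of all genes) and none higher. Act79B then had 1.63 FPKM in KD 36h and 16.4 FPKM in WT 36h, the opposite direction.

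**Figure D3:**
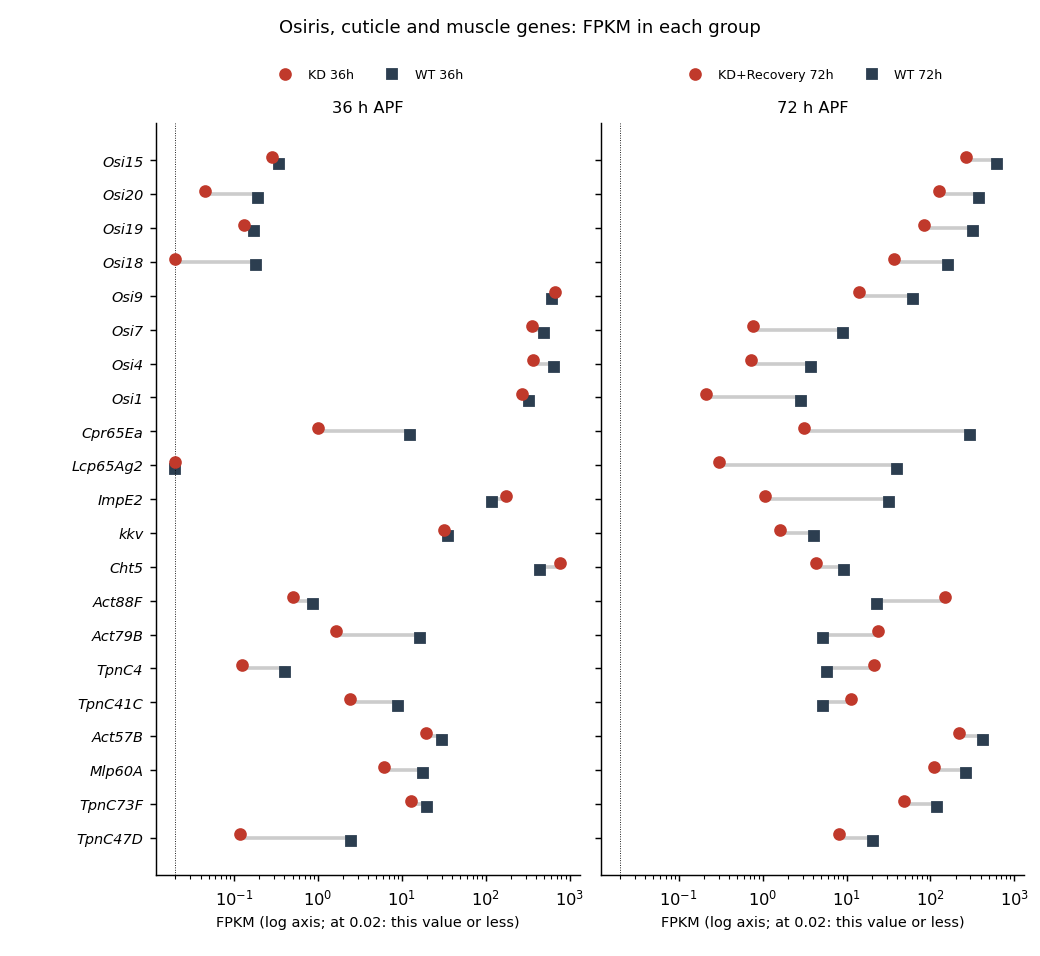
FPKM (log axis, 1 pooled value per group) of 8 Osiris, 5 cuticle and ecdysone-induced and 8 muscle genes, with KD 36h and WT 36h on the left and KD+Recovery 72h and WT 72h on the right, where values at or under 0.02 sit on the dotted line. At 72 h the Osiris and cuticle genes are lower in KD+Recovery 72h, while Act88F, Act79B, TpnC4 and TpnC41C are higher and the other 4 muscle genes lower.

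Most neuronal genes differed by less than 2-fold, and several neuronal lists lay largely above 0. Of 17 pan-neuronal markers none differed 2-fold, yet 16 were higher in KD+Recovery 72h, with a median log2 ratio of 0.50. n-syb, the vesicle SNARE of neurotransmitter release, had 1208 FPKM in KD+Recovery 72h and 703 FPKM in WT 72h. elav, the neuronal RNA-binding protein whose promoter drives the GAL4, had 41.6 FPKM in KD+Recovery 72h and 25.5 FPKM in WT 72h, and brp, the scaffold of the active zone, had 215 FPKM and 126 FPKM. All 12 voltage-gated sodium and calcium channel genes were higher, with a median log2 ratio of 0.41. cac, the calcium channel of the synapse, had 160 FPKM in KD+Recovery 72h and 108 FPKM in WT 72h. Of 34 genes of synaptic vesicle release 33 were higher (median 0.27), of 21 potassium channel genes 18 (median 0.38), of 24 genes of calcium and phosphoinositide signalling 22 (median 0.41) and of 29 neuronal RNA-binding proteins 27 (median 0.38). The single gene of these lists to differ 2-fold was Sh, the Shaker potassium channel, with 178 FPKM in KD+Recovery 72h and 70.6 FPKM in WT 72h (2.02% of all genes were higher). Other neuronal lists were more mixed. Of 42 neuropeptide genes 20 were above and 22 below 0 (median -0.01), of 54 genes of the dpr, beat and side families of surface proteins 42 were above and 12 below, and of 37 adhesion and synaptic partner genes 29 were above and 8 below. One of these 8, the neuroligin gene Nlg1 (listed as CG31146), had 0.247 FPKM in KD+Recovery 72h and 5.48 FPKM in WT 72h, 22.2-fold lower. Nlg1 passed the level filter only through WT 72h, which fixes its direction. Of 36 axon guidance genes 30 were above and 6 below 0, and comm2, of the commissureless family, had 1.02 FPKM in KD+Recovery 72h and 2.80 FPKM in WT 72h.

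Genes of translation and energy supply leaned the other way. Of 85 cytoplasmic ribosomal protein genes 84 had a log2 ratio below 0, with a median of -0.32 and none 2-fold lower. Medians were -0.23 for mitochondrial ribosomal proteins, -0.20 for oxidative phosphorylation and -0.16 for the proteasome. These proteins have short transcripts and channels have long ones, and the ratio followed transcript length across all genes. Of 10 equal groups of genes ordered by length, the group with the shortest transcripts (median 610 nt) had a median log2 ratio of -0.27, and the group with the longest (median 7406 nt) had one of 0.44. The medians increased at every step from short to long. At 36 h the same trend was shallower, with -0.09 in the shortest and 0.13 in the longest group.

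**Figure D4:**
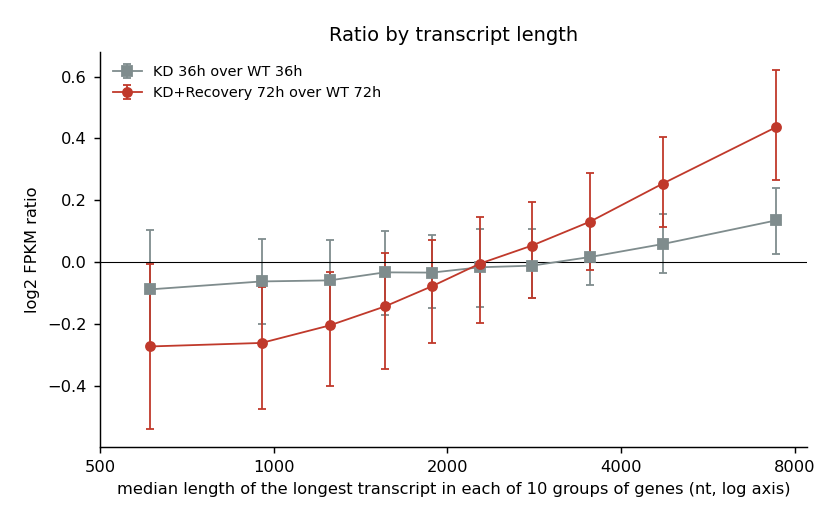
Median log2 FPKM ratio with its quartiles (bars) in 10 equal groups of genes ordered by the length of their longest transcript (log axis, nt), for KD 36h over WT 36h and KD+Recovery 72h over WT 72h. The medians at 72 h run from -0.27 to 0.44, against -0.09 to 0.13 at 36 h.

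When each ratio was taken relative to genes of similar length, in 20 length groups, the neuronal medians came close to 0. They were 0.08 for pan-neuronal markers, 0.04 for sodium and calcium channels, 0.07 for synaptic vesicle genes, 0.07 for potassium channels and 0.11 for calcium signalling. Ribosomal proteins had -0.07, mitochondrial ribosomal proteins 0.01 and oxidative phosphorylation 0.04. Sh kept a centred log2 ratio of 0.83, below 2-fold. By contrast, the male germline median was -5.30 after centring, the Tweedle and Osiris median -1.02, against -1.16 before, and the chitin median -0.47, against -0.37 before. The medians of those 3 groups stayed below 0 relative to genes of their own length. Many of their lower genes were under 1 FPKM in KD+Recovery 72h, so that the level filter fixed their direction before any centring. This held for 11 of 12 lower male germline genes, 8 of 13 Tweedle and Osiris genes and 1 of 7 chitin genes. Medians of trachea (-0.40), Rebers-Riddiford cuticle (-0.34) and muscle genes (-0.18) were also below 0 after centring. Whether the length trend came from the RNA, the libraries or the cells was not tested. Scaling the groups to a common upper quartile lowered every log2 ratio by 0.14, which left the medians of these neuronal groups above 0 and made those of the ribosomal groups lower.

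**Figure D5:**
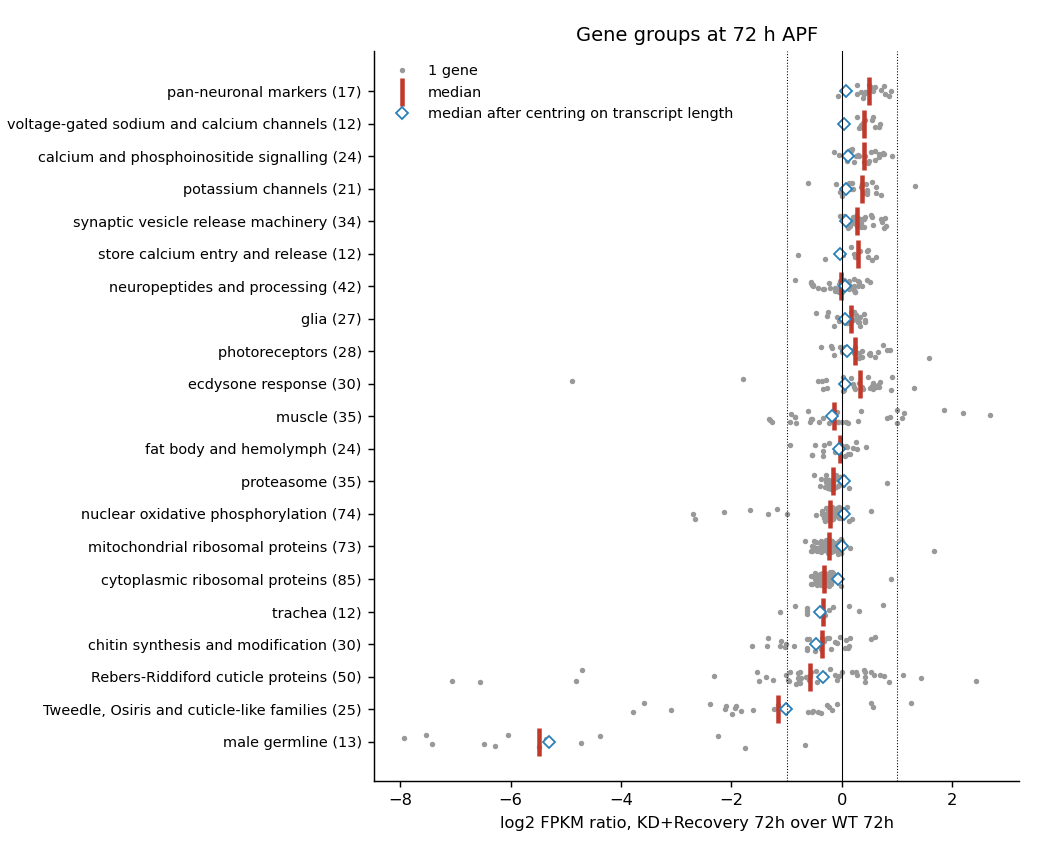
Log2 FPKM ratio of KD+Recovery 72h over WT 72h for the genes of 21 lists (points, with the number compared in brackets), the list's median (red bar) and its median after centring on transcript length (open diamond), with dotted lines at 2-fold. Neuronal and ribosomal medians move to about 0 after centring. The medians of the male germline, Tweedle and Osiris, chitin, Rebers-Riddiford cuticle, trachea and muscle lists stay below 0.

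Transmitter systems showed no difference of 2-fold. This held for 14 acetylcholine genes, 29 GABA and glutamate genes, 29 monoamine genes and 42 neuropeptide genes. Over all genes 2.02% were higher and 5.18% lower, and at a mean FPKM from 20 to 50 only 0.69% and 1.19%. An absence in lists of this size is therefore not read as particular to transmitter genes. Gat (listed as CG1732), the GABA transporter of glia, had 2797 FPKM in KD+Recovery 72h and 2475 FPKM in WT 72h, although at 36 h it had 86.8 FPKM in KD 36h and 182 FPKM in WT 36h. The dopamine transporter DAT had 31.8 FPKM in KD+Recovery 72h and 31.5 FPKM in WT 72h. Rala, the small GTPase of exocytosis, had 33.2 FPKM in KD+Recovery 72h and 36.5 FPKM in WT 72h, against a wider gap of 56.3 FPKM in KD 36h and 105 FPKM in WT 36h. Of 27 glial genes none differed 2-fold (median 0.16, and 0.02 with upper-quartile scaling). Of 28 photoreceptor genes 1 was higher (2.02% of all genes), the cation channel trpl with 4.81 FPKM in KD+Recovery 72h and 1.60 FPKM in WT 72h. Markers of the labelled tissue were present, as all 8 neuronal and all 9 glial markers exceeded 1 FPKM in both groups. Their summed FPKM was 3220 and 6858 in KD+Recovery 72h, against 2120 and 6093 in WT 72h.

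Hr38, h and abd-A, single transcription factor genes of different lists, were at least 2-fold higher. Hr38, a nuclear receptor induced by neuronal activity in insects, had 8.22 FPKM in KD+Recovery 72h and 3.33 FPKM in WT 72h. The repressor h (hairy) had 8.32 FPKM in KD+Recovery 72h and 2.75 FPKM in WT 72h. Of 8 gap-class and head transcription factors compared, 2 were higher, h and gt (2.02% of all genes). All 9 Hox genes and cofactors compared were above 0 (median 0.46, 0.13 after centring on length). Only abd-A, which specifies abdominal segments, was 2-fold higher (2.02% of all genes), with 4.997 FPKM in KD+Recovery 72h and 2.14 FPKM in WT 72h. Relative to genes of similar length both fell short of 2-fold, with log2 ratios of 0.80 for Hr38 and 0.94 for abd-A. Of 30 ecdysone response genes Hr38 was the only one 2-fold higher (2.02% of all genes), and ImpE2 and ImpL1 were the only ones lower (5.18% of all genes). The receptor EcR itself had 44.1 FPKM in KD+Recovery 72h and 29.7 FPKM in WT 72h. Of 20 Notch pathway genes compared, 2 were at least 2-fold lower (5.18% of all genes), the Notch targets HLHmdelta and HLHm7. They had 0.288 FPKM and 0.731 FPKM in KD+Recovery 72h, against 1.84 FPKM and 2.21 FPKM in WT 72h. Both passed the level filter only through WT 72h, which fixes their direction.

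Stress and defence genes differed in both directions. Of 41 genes of glutathione transferases and glucuronosyltransferases, 4 were at least 2-fold higher (2.02% of all genes) and 3 lower (5.18% of all genes). GstE1, a glutathione transferase, had 124 FPKM in KD+Recovery 72h and 33.8 FPKM in WT 72h, and GstE9 10.1 FPKM and 3.68 FPKM. GstD3 had 45.5 FPKM in KD+Recovery 72h and 242 FPKM in WT 72h, and was also the lower one at 36 h with 203 FPKM in KD 36h and 523 FPKM in WT 36h. Of 38 cytochrome P450 genes 4 were at least 2-fold higher (2.02% of all genes) and 5 lower (5.18% of all genes). Under 1 FPKM were 3 of the 5 lower genes in KD+Recovery 72h, with Cyp6a17, and 1 of the 4 higher, Cyp6t3, in WT 72h. These passed the level filter through 1 group alone, which fixes their direction. Cyp6a17, a P450 of the brain's mushroom bodies, had the lowest ratio of all genes with a mean of at least 5 FPKM, with 0.0265 FPKM in KD+Recovery 72h and 11.5 FPKM in WT 72h. At 36 h it had 0.0253 FPKM in KD 36h and 1.92 FPKM in WT 36h, so it was nearly absent in the knockdown genotype at both times. Cyp6t3 was the reverse, with 4.76 FPKM in KD+Recovery 72h and 0.190 FPKM in WT 72h, and 8.70 FPKM in KD 36h and 1.53 FPKM in WT 36h. CG12971 had the highest ratio by the same rule, with 26.1 FPKM in KD+Recovery 72h and 0.0637 FPKM in WT 72h, and at 36 h had 12.5 FPKM in KD 36h while listed at 0 in WT 36h. Genes of near-identical families such as these can share reads.

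Among 21 heat shock genes compared, the small chaperone Hsp27 had 34.4 FPKM in KD+Recovery 72h and 11.6 FPKM in WT 72h, and Hsp68 13.2 FPKM and 6.29 FPKM. The Hsp70 relative Hsc70-2 had 0.266 FPKM in KD+Recovery 72h and 5.45 FPKM in WT 72h, and at 36 h 0.342 FPKM in KD 36h and 43.6 FPKM in WT 36h. Hsp60C, an Hsp60 copy needed in spermatogenesis, had 0.280 FPKM in KD+Recovery 72h and 7.26 FPKM in WT 72h. At 72 h Hsc70-2 and Hsp60C passed the level filter only through WT 72h, which fixes their direction. Of 28 immune genes 6 were at least 2-fold lower (5.18% of all genes) and 1 higher (2.02% of all genes). PGRP-LC, the receptor that starts the Imd response to bacteria, had 1.95 FPKM in KD+Recovery 72h and 5.28 FPKM in WT 72h, and the antimicrobial peptide gene Dro 2.89 FPKM and 0.562 FPKM. Dro, the higher gene, and 1 of the 6 lower genes passed the level filter through 1 group alone, which fixes their direction. Among odorant-binding proteins, Obp99a had 25.5 FPKM in KD+Recovery 72h and 75.5 FPKM in WT 72h, while Obp51a had 5.14 FPKM and 0.249 FPKM. Obp51a passed the level filter only through KD+Recovery 72h.

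Part of these differences was present at both times. Of 477 genes at least 2-fold lower at 72 h, 268 could be compared at 36 h, where 74 were also at least 2-fold lower in KD 36h (3.02% of all genes at 36 h), 9 were at least 2-fold higher and 134 were within 1.5-fold. Of 186 higher genes, 135 could be compared, of which 43 were also at least 2-fold higher (2.11% of all genes at 36 h), 10 were lower and 57 were within 1.5-fold. The genes shared between the times include w, gt, tko and GstD3. Of 8 male germline genes that could be compared at 36 h, only Mst89B was at least 2-fold lower, with 0.0743 FPKM in KD 36h and 1.98 FPKM in WT 36h. At 72 h it had 0.0372 FPKM in KD+Recovery 72h and 3.34 FPKM in WT 72h. The roX RNAs differed by less than 2-fold at 36 h, and the late Osiris genes were too scarce then to compare.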

How the data were processed

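RNA from pooled pupal CNS was sequenced from 2 biological replicates per group. TruSeq v2 libraries do not mark strand, so overlapping genes cannot be told apart. According to the submitters' processing notes, reads were aligned to dm3 with TopHat2 2.0.11 and compared with Cuffdiff 2.2.0 and edgeR. The authors deposited, per gene and group, 1 FPKM value pooled over replicates after geometric normalization. Their tables also hold fold changes, test statistics, p-values and q-values of the authors' own comparison, and the edgeR tables only such values. None of these was used.

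Ratios were computed from the FPKM of 13989 listed genes with Python 3.11.15 and pandas 2.3.3, for genes with a mean FPKM of at least 1 and above 0 in both groups (9204 at 72 h). With 1 value per group no test was possible, and a 2-fold threshold was used. FPKM multiplied by transcript length clustered between 0.04 and 0.05 for the scarcest genes in both groups at 72 h, where 241 genes of KD+Recovery 72h and 130 of WT 72h fell. No read counts were recovered.

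Genes were described in 63 lists, of which 62 had members compared and 1, of mitochondrial genome transcripts, found none. Gene names were matched to current symbols for 13706 genes, and transcript lengths (98.3% of genes compared) came from Ensembl release 115, whose build differs from dm3, so coordinates are the CuffDiff loci of the files, which can span overlapping genes. Members and lists were chosen with earlier results of these data known, and some lists were corrected after values were seen (accessory gland genes taken out of the germline list, cuticle proteins named Acp added to the cuticle list, cyclophilin Cyp1 taken out of the P450 list). Named genes were the 12 highest and the 12 lowest ratios at a mean FPKM of at least 5, for each list up to 4 members of at least 2-fold and its most abundant member, genes followed by the study, and genes listed at 0 in 1 group with at least 5 FPKM in the other. Others named, as examples of a list, were chosen after their values were seen. The calculation was tested on simulated data. Alternatives were pseudocounts of 0.1 and 1, other filters and scalings, centring on transcript length and, chosen after seeing the data, leaving out small RNAs or the germline list.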

Additional observations from a re-analysis of the deposited data

Results flagged for a closer look

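The genes here had a mean FPKM of at least 5 at both times and differed at least 2-fold in opposite directions at 36 and 72 h. That difference between times was not tested, since each group has 1 pooled value. Act79B, an actin of adult muscle, had a log2 ratio of 2.20 at 72 h (24.0 FPKM in KD+Recovery 72h and 5.24 FPKM in WT 72h) and of -3.33 at 36 h. The troponin C gene TpnC41C had 1.12 at 72 h and -1.91 at 36 h. Hsp68, a heat-inducible chaperone, had 1.07 at 72 h and -1.39 at 36 h. The cuticle gene TwdlT had 1.25 at 72 h (9.12 FPKM in KD+Recovery 72h and 3.84 FPKM in WT 72h) and -1.71 at 36 h. CG15887 went the other way, with -1.58 at 72 h and 1.06 at 36 h.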

How the results depend on the processing

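No paired analysis was possible because the tables hold 1 pooled value per group, and for the same reason no replicate could be left out. The counts of 186 higher and 477 lower genes at 72 h depended mostly on the filter. Without one there were 438 higher and 1414 lower genes, and with a mean FPKM of at least 5 there were 104 and 149. With at least 1 FPKM in both groups they were 143 and 207. Under the other 8 alternatives, both counts stayed within 1.5 times their value, and lower genes were the more numerous in all 11. The log2 ratio of dStim ranged from -0.45 (common upper quartile) to -0.27 (common sum). Of 62 list medians, 15 changed sign with upper-quartile scaling and 16 after centring on transcript length, all of them within 0.5 of 0 before. No named gene of at least 2-fold changed sign, whereas 18 named genes under 2-fold did after centring on length. With a pseudocount of 1, 14 named genes no longer reached 2-fold, and after centring on length 4 did not (Hr38, Sh, abd-A and rpr). Pooled values leave the error of every ratio unknown, and ratios of scarce genes are the least certain.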

Other observations

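Several abundant RNAs outside the lists, chosen after their values were seen, differed widely at 72 h. CG34196 had 24.4 FPKM in KD+Recovery 72h and 1155 FPKM in WT 72h, CG1368 24.0 FPKM and 480 FPKM, and CG14191 3.61 FPKM and 252 FPKM in the same groups. All 3 were under 2 FPKM in both groups at 36 h. In the other direction CG2150 had 167 FPKM in KD+Recovery 72h and 40.9 FPKM in WT 72h, CG13066 131 FPKM and 26.5 FPKM, and the zinc finger gene cbt 64.7 FPKM and 17.8 FPKM.

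Some genes that differed lay next to each other. Leaving out small RNAs, 118 of 467 lower genes (25.3%) and 22 of 164 higher genes (13.4%) had a neighbour among the compared genes of the main chromosome arms that was called in the same direction. Of all genes on these arms, 9.75% had a lower and 3.52% a higher neighbour. Apart from the Osiris block, the longest run was one of 5 lower genes on 3R that includes ry and Hsc70-2. CG6912, CG3984 and CG3987, neighbours on 3R, were each higher at 72 h, CG6912 with 175 FPKM in KD+Recovery 72h and 50.6 FPKM in WT 72h, and also at 36 h, with 255 FPKM in KD 36h and 99.5 FPKM in WT 36h. Neighbouring loci in the tables can share reads.

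Small RNAs of the nucleus and nucleolus were erratic in both directions. Of 77 genes listed at 0 in 1 group with 5 FPKM or more in the other, 54 were of this kind, 29 at 0 in KD+Recovery 72h and 25 at 0 in WT 72h.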
